A study of Rattus norvegicus with 11 samples.

Results

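The immediate early response genes are Fos, Fosb, Jun, Junb, Egr1, Atf3, Ier2, Nr4a1, Dusp1 and Btg2, 10 genes taken as a set by name. Every probe set whose annotated gene symbol is exactly one of these names was used. That gave 13 of the 31042 probe sets tested and 9 of the 10 genes, because no probe set carried the name Btg2, which is not analysed here. Fos and Dusp1 had 2 probe sets each, Jun had 3, and the other genes had 1.

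RNA from whole lung of Dahl salt-sensitive rats weighing 250 to 350 g was hybridised to 11 Affymetrix rat arrays. Hypoxia with SU5416 (3 arrays) combined an inspired oxygen of about 9.5% with SU5416, a small molecule that blocks VEGF (vascular endothelial growth factor) receptors. Hypoxia alone (4 arrays) had the same oxygen level and, per the series text, vehicle, and normoxia (4 arrays) was room air with vehicle. Lungs were collected at 3.5 weeks, from animals exsanguinated under anaesthesia whose pulmonary vessels were flushed through the pulmonary artery. A further group given sorafenib was not analysed here, and no group among these received SU5416 without hypoxia. The labels do not say whether each array came from a separate animal, so the p-values measure the spread between these arrays, which may be technical in part. In whole lung, fewer cells of a type and less RNA per cell cannot be told apart.

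Immediate early genes are transcribed within minutes of a stimulus such as a growth factor, mechanical stretch or injury, without new protein synthesis, and their transcripts are short-lived. Kinase cascades acting on serum response factor with its ETS partners, and on CREB-family proteins, are the best known route to their promoters. Most of the products are transcription factors, among them the AP-1 proteins of the Fos, Jun and ATF families, while others such as Dusp1 act back on the kinases. In tissue, the handling of the organ before freezing or lysis is itself a known stimulus for these genes.

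Promoter sequences were available for 6 of the 9 measured genes, from RefSeq on the GRCr8 build. Shown are the 250 bases before the start of 4 of them, chosen because each holds a match to one of the motifs searched and because these genes take part in the array-to-array pattern described further on. The windows are chr18:26736828-26737077 for Egr1, chr19:40080876-40081125 for Junb, chr19:40399123-40399372 for Ier2 and chr10:17184603-17184852 for Dusp1, all on the plus strand and written 5′ to 3′. Capitals mark the motif matches.
Egr1: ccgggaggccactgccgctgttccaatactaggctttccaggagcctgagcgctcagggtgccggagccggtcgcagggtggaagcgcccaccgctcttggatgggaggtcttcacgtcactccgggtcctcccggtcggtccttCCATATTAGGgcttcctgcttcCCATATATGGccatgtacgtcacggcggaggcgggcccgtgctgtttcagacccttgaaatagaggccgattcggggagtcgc
Junb: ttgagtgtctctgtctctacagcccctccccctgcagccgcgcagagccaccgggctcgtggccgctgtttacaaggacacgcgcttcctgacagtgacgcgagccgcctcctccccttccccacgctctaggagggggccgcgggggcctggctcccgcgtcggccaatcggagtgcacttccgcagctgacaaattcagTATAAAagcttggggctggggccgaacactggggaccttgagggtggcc
Ier2: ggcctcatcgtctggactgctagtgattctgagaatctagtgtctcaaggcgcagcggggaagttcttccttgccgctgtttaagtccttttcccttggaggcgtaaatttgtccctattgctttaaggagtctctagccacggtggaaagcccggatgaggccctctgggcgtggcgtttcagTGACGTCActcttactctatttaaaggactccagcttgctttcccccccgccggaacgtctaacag
Dusp1: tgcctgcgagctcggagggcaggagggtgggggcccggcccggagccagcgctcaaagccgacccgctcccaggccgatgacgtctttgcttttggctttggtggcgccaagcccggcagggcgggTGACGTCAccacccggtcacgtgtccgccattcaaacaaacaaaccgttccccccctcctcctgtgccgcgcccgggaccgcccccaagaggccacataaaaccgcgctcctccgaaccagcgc

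The Egr1 window held 2 CArG boxes, the element bound by serum response factor, at bases -105 to -96 and -83 to -74 counted from the start. A CArG box occurred in 1.5% of the 33469 RefSeq promoter windows of the same length. Ier2 had the cAMP response element TGACGTCA at -66 to -59 and Dusp1 had it at -124 to -117, and 1.59% of all windows held it. Junb had TATAAA at -49 to -44, and Fosb had it on the other strand at -180 to -175, against 12.9% of all windows. The AP-1 site TGANTCA, found in 6.34% of all windows, was in none of the 6, and the Nr4a1 window held no match to any of the 4 motifs. All motifs were searched on both strands and no matches overlapped. The Fosb and Nr4a1 windows start from a position inside the annotated gene, 322 and 12985 bases from its annotated 5′ end, so they may belong to other transcripts. A match here is a stretch of letters and not a measured binding site.

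All 9 measured genes gave signal in the lung in all groups: the mean of each of the 13 probe sets was above background in each group. Background was set at 5.72 log2, a level that 95% of the values of the 27 bacterial control probe sets on all arrays did not exceed. None of the 13 probe sets passed the test in hypoxia with SU5416 against normoxia, in hypoxia with SU5416 against hypoxia, or in hypoxia against normoxia. The test was limma on the log2 values with Benjamini-Hochberg adjustment over all 31042 probe sets, at an adjusted p below 0.05. Calls were rare throughout: of all probe sets, 0.0612%, 0.0258% and 0.00644% were called in those 3 comparisons. At an unadjusted p below 0.05, 4 of the 13 were lower in hypoxia with SU5416 against normoxia (7.57% of all probe sets), 1 was lower in hypoxia with SU5416 against hypoxia (3.45%) and 1 was higher in hypoxia against normoxia (3.33%). In the other direction there were 0 in each, against 4.82%, 4.02% and 7.64% of all probe sets. Of the 4 lower in hypoxia with SU5416 against normoxia, 2 are probe sets of Jun. With 1 probe set per gene, 3 of 9 members were lower at that unadjusted p, against 952 of all 14217 genes.

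**Figure D1:**
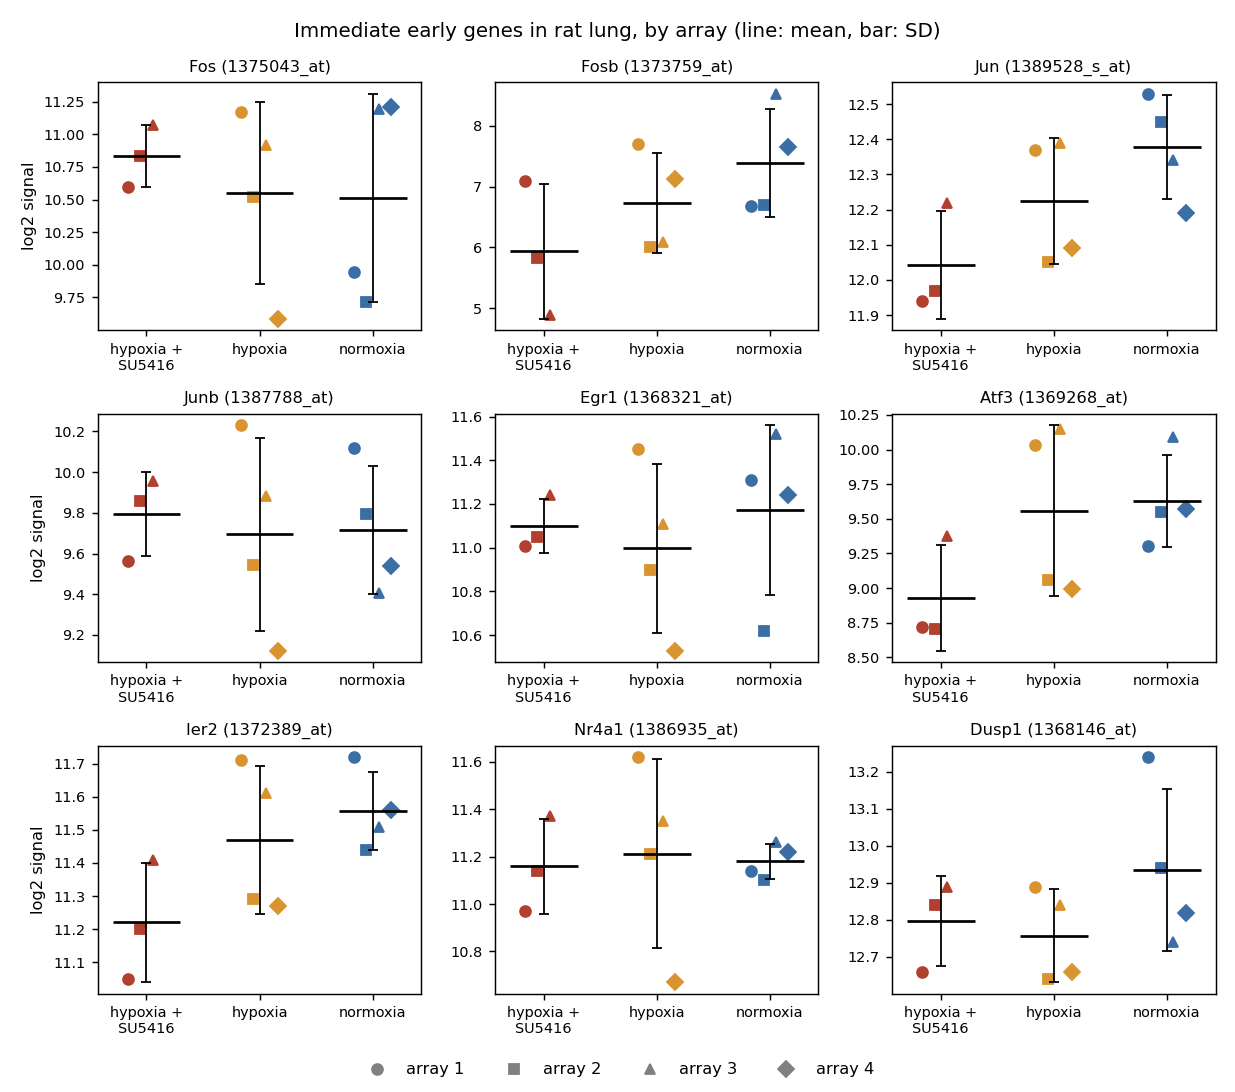
Log2 signal (vertical axis) of the 9 measured genes, each by its probe set of highest mean, on each of the 11 arrays by group, with the group mean (line) and SD (error bar). The vertical axes differ between panels and do not start at 0. All groups overlap in all 9 genes, except that the Ier2 arrays of hypoxia with SU5416 lie below those of normoxia.

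Fos encodes the DNA-binding partner of Jun in the classical AP-1 dimer, and its 2 probe sets gave different pictures. The first, 1375043_at, which has the higher mean, read 10.60, 10.83 and 11.07 log2 in hypoxia with SU5416, 11.17, 10.52, 10.92 and 9.59 in hypoxia, and 9.94, 9.72, 11.19 and 11.21 in normoxia. Normoxia arrays 3 and 4 lay more than 1 log2 unit above normoxia arrays 1 and 2, and hypoxia array 4 stood below the other 3 hypoxia arrays, so all groups overlapped. The mean was 10.83 ± 0.24 in hypoxia with SU5416 (SD, n = 3), 10.55 ± 0.70 in hypoxia and 10.51 ± 0.80 in normoxia (n = 4 each). Limma's adjusted p was 0.819 in hypoxia with SU5416 against normoxia, 0.923 in hypoxia with SU5416 against hypoxia and 0.985 in hypoxia against normoxia.

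The second Fos probe set, 1371283_at, read 5.41, 5.64 and 7.20 log2 in hypoxia with SU5416, 7.72, 7.48, 7.97 and 7.95 in hypoxia, and 6.87, 5.52, 7.14 and 7.00 in normoxia. The 4 hypoxia arrays lay above all others, and 2 arrays of hypoxia with SU5416 and normoxia array 2 were below the background level. Hypoxia with SU5416 was lower than hypoxia by 3.25-fold (95% interval 1.56 to 6.75; log2 difference -1.70, SE 0.47), with an adjusted p of 0.442 in limma. Hypoxia was 2.21-fold higher than normoxia (1.12 to 4.36; log2 difference 1.15, SE 0.44), with an adjusted p of 0.396, and the difference was 0.71 without normoxia arrays 1 and 2. It is the only member whose arrays did not overlap in these comparisons, where 5.25% of all probe sets lay wholly lower in hypoxia with SU5416 than in hypoxia and 2.05% wholly higher in hypoxia than in normoxia. Neither difference appears in 1375043_at, where the log2 differences were 0.28 and 0.03.

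Fosb, a second Fos-family partner of Jun, varied most between arrays of one group. It read 7.10, 5.82 and 4.89 log2 in hypoxia with SU5416, 7.70, 6.00, 6.09 and 7.13 in hypoxia, and 6.68, 6.70, 8.53 and 7.66 in normoxia. Its group means stood in the order normoxia, hypoxia, hypoxia with SU5416, the last with 1 array below background. Hypoxia with SU5416 was 2.75-fold lower than normoxia (95% interval 1.03 to 7.38; log2 difference -1.46, SE 0.64, adjusted p = 0.389 in limma), and array 1 of that group overlapped with normoxia. Against hypoxia the log2 difference was -0.80 (SE 0.64, adjusted p = 0.847), and hypoxia differed from normoxia by -0.66 (SE 0.59, adjusted p = 0.71). This last difference was -1.37 without normoxia arrays 1 and 2 (limma adjusted p = 0.35) and -1.02 with the beta-actin gap, described further on, as a covariate (adjusted p = 0.46).

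Jun, the partner of Fos in the AP-1 dimer, had narrow groups. Its probe set of highest mean, 1389528_s_at, read 11.94, 11.97 and 12.22 log2 in hypoxia with SU5416, 12.37, 12.05, 12.39 and 12.09 in hypoxia, and 12.53, 12.45, 12.34 and 12.19 in normoxia. The group means descended from normoxia through hypoxia to hypoxia with SU5416, and each pair of groups overlapped. All 3 Jun probe sets shared that order of means. In hypoxia with SU5416 against normoxia the log2 differences were -0.33 (SE 0.14), -0.36 (SE 0.15) for 1369788_s_at and -0.28 (SE 0.15) for 1374404_at, with limma's adjusted p at 0.357, 0.386 and 0.491. The other comparisons of Jun gave differences between -0.07 and -0.26, none of them called.

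Junb, a Jun-family protein that can restrain Jun's activity, read 9.56, 9.86 and 9.96 log2 in hypoxia with SU5416, 10.23, 9.54, 9.88 and 9.12 in hypoxia, and 10.12, 9.80, 9.41 and 9.54 in normoxia. The means were 9.79 ± 0.21 in hypoxia with SU5416 (SD, n = 3), 9.69 ± 0.47 in hypoxia and 9.72 ± 0.31 in normoxia (n = 4 each), closer together than the arrays within any group. The 95% interval of hypoxia with SU5416 against normoxia was -0.50 to 0.66 on the log2 scale.

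Atf3, a stress-induced member of the ATF family that dimerises with Jun, read 8.72, 8.70 and 9.37 log2 in hypoxia with SU5416, 10.03, 9.06, 10.15 and 8.996 in hypoxia, and 9.30, 9.55, 10.09 and 9.57 in normoxia. Arrays 1 and 2 of hypoxia with SU5416 were below all others, and array 3 overlapped with both groups. The log2 difference was -0.70 against normoxia (95% interval -1.43 to 0.04, adjusted p = 0.431 in limma) and -0.63 against hypoxia (-1.36 to 0.11, adjusted p = 0.742). Hypoxia itself split into 2 arrays near 10 and 2 near 9 log2 and differed from normoxia by -0.07 (-0.75 to 0.61).

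Egr1, a zinc-finger transcription factor induced by growth factors and shear stress in vessel walls, read 11.01, 11.05 and 11.24 log2 in hypoxia with SU5416, 11.45, 10.90, 11.11 and 10.53 in hypoxia, and 11.31, 10.62, 11.52 and 11.24 in normoxia. The groups overlapped, and the means were 11.10 ± 0.12 in hypoxia with SU5416 (SD, n = 3), 10.998 ± 0.39 in hypoxia and 11.17 ± 0.39 in normoxia (n = 4 each). Nr4a1, an orphan nuclear receptor, read 10.97, 11.14 and 11.37 log2 in hypoxia with SU5416, 11.62, 11.21, 11.35 and 10.67 in hypoxia, and 11.14, 11.10, 11.26 and 11.22 in normoxia. Normoxia held the narrowest range, 0.16 log2, and hypoxia the widest, 0.95, with both its highest and its lowest array outside the range of the other groups. The 95% interval of hypoxia with SU5416 against normoxia was -0.62 to 0.47 for Egr1 and -0.47 to 0.43 for Nr4a1.

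Ier2, a small nuclear protein named for its immediate early response, read 11.05, 11.20 and 11.41 log2 in hypoxia with SU5416, 11.71, 11.29, 11.61 and 11.27 in hypoxia, and 11.72, 11.44, 11.51 and 11.56 in normoxia. All 3 arrays of hypoxia with SU5416 lay below all 4 of normoxia, the nearest by 0.03 log2, while hypoxia overlapped with both. Among all probe sets, 6.97% lay wholly lower in that comparison, and Ier2 was the 1 of 13 members that did. The log2 difference was -0.34 (95% interval -0.66 to -0.01, SE 0.15), a 1.26-fold lower level, with an adjusted p of 0.386 in limma.

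Dusp1, the phosphatase that switches off p38, JNK and ERK kinases, is measured by 2 probe sets. The first, 1368146_at, read 12.66, 12.84 and 12.89 log2 in hypoxia with SU5416, 12.89, 12.64, 12.84 and 12.66 in hypoxia, and 13.24, 12.94, 12.74 and 12.82 in normoxia. Its arrays spanned less than 1 log2 unit in all, and the groups overlapped, with log2 differences of -0.14 (hypoxia with SU5416 against normoxia), 0.04 (hypoxia with SU5416 against hypoxia) and -0.18 (hypoxia against normoxia). The second, 1368147_at, read 10.95, 11.49 and 10.95 in hypoxia with SU5416, 11.39, 10.24, 10.32 and 10.56 in hypoxia, and 9.55, 9.73, 11.26 and 11.37 in normoxia. Normoxia arrays 1 and 2, the highest of their group on the first probe set, were the lowest of all 11 on the second.

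**Figure D2:**
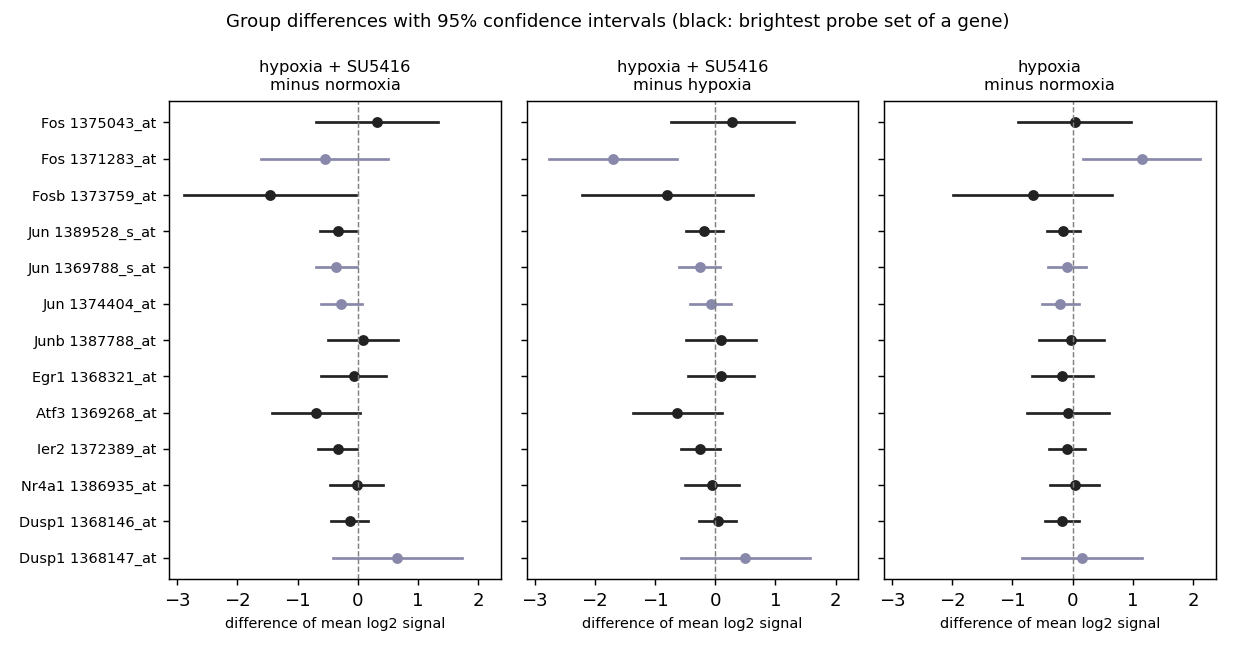
Log2 difference of group means with its 95% interval (horizontal axis) for each of the 13 probe sets in the 3 comparisons, with the probe set of highest mean per gene in black. Only the second Fos probe set, Fosb, Ier2 and 2 of the 3 Jun probe sets have an interval that leaves out 0 in any comparison, and none passes the adjusted test.

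Over the genes, each by its probe set of highest mean, the median log2 difference in hypoxia with SU5416 against normoxia was -0.14 for the 9 members and -0.015 for all 14217 genes, with 7 of 9 members lower against 52.6% of all genes. The medians in hypoxia with SU5416 against hypoxia were -0.053 and -0.0046, and 5 of 9 members were lower. In hypoxia against normoxia they were -0.088 and -0.005, and 7 of 9 were lower against 51.0% of all genes. With each array centred on its median, the members' median was 0.0025 and 4 of 9 were lower. The same centring gave 6 of 9 lower in each of the other comparisons. Centring moves all genes of an array by the same amount, so it did not change the distance between the members and all genes. In hypoxia against normoxia, 9 of 9 were lower after quantile normalization. It was 8 of 9 with the beta-actin gap as a covariate or without normoxia arrays 1 and 2. Leaving out single hypoxia arrays gave 9 of 9 without array 1 or array 3, and 5 of 9 without array 2 or array 4. The 2 comparisons with normoxia share its 4 arrays. These are descriptions of the set, for which no test was made.

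The members were unequal in how much they varied between arrays of one group. Their median within-group SD was 0.34 log2, against 0.27 for all probe sets and 0.19 for the 15521 of highest mean. Fosb (0.93), Fos (0.66), Atf3 (0.47) and Junb (0.36) were the most variable. Jun (0.16), Dusp1 (0.17) and Ier2 (0.18) were below the median of all probe sets. Dusp1 was that steady on 1368146_at alone, and its second probe set had an SD of 0.70.

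Within a group, an array that was high in one of these genes tended to be high in the others. With group means subtracted, the 36 pairs of members had a mean correlation of 0.42 and a median of 0.52 over the 11 arrays, 30 of 36 were positive and 18 were above 0.5, whereas the pairs among the other 12395 genes above background had a mean of 0.0029. Hypoxia array 1 was the highest of its group in 7 of 9 genes and hypoxia array 4 the lowest in 6. Of the SU5416 arrays, array 3 was the highest in 8 genes and array 1 the lowest in 7. Normoxia showed no single order: array 1 was highest in Jun, Junb, Ier2 and Dusp1, and array 3 in Fosb, Egr1, Atf3 and Nr4a1. The beta-actin gap, described further on, was 2.24, 1.33, 0.51 and 0.60 log2 on normoxia arrays 1 to 4. Junb and Dusp1 ranked these arrays as the gap did, and Fosb and Atf3 ranked them in reverse. Fos, Jun, Egr1, Ier2 and Nr4a1 followed neither order. The part of the gap in these orders was not tested. The labels give no batch by which these arrays could be divided.

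**Figure D3:**
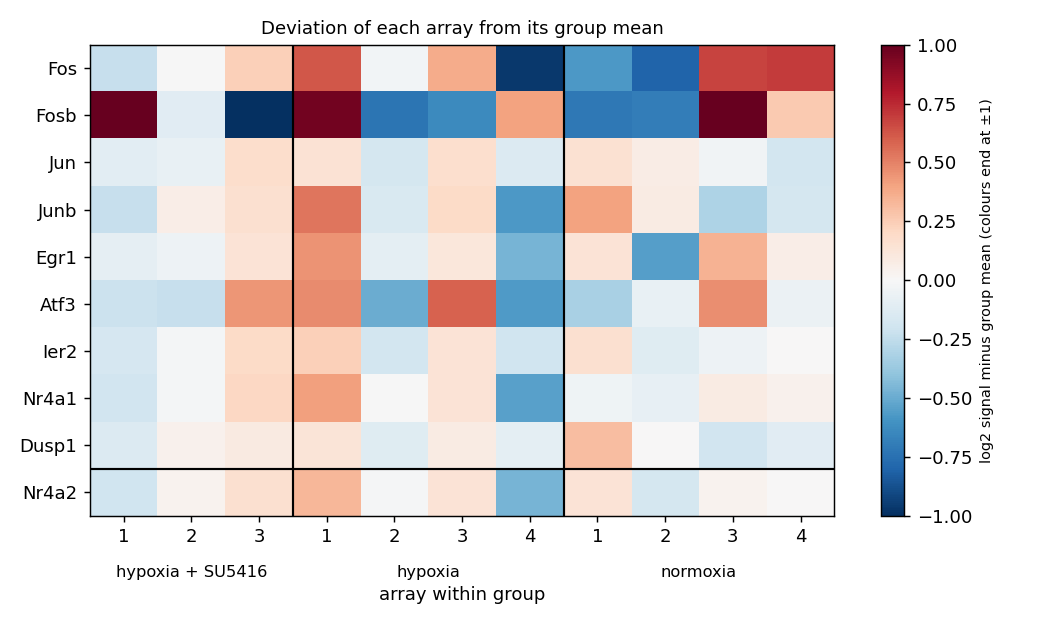
Deviation of the 9 genes and of Nr4a2 (bottom row) from the group mean on each of the 11 arrays, as colour (log2, red above and blue below the mean, colours ending at 1 unit either way). Hypoxia array 1 is above its group mean in all 9 genes and hypoxia array 4 is below it in all but Fosb, which in hypoxia with SU5416 also runs opposite to the other 8.

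Junb and Dusp1 formed the closest pair, with r = 0.86 and rho = 0.87 over the 11 arrays. Permutation of the arrays within groups gave a p of 0.0011 for r (0.013 adjusted over the 36 pairs) and 0.0026 for rho (0.048 adjusted). Without the 2 arrays farthest from the median r was 0.98. In each pair those were the farthest in the first gene named, here hypoxia arrays 1 and 4, so normoxia array 1, of widest beta-actin gap, stayed in. Dusp1 stands here for 1368146_at, and its second probe set ran opposite to it (r = -0.42 with group means subtracted). Egr1 and Nr4a1 had r = 0.78 (adjusted permutation p = 0.013), rho = 0.80 (adjusted 0.077) and r = 0.78 without the 2 farthest arrays. For Fos and Nr4a1 the values were r = 0.77 (adjusted permutation p = 0.013), rho = 0.81 (adjusted 0.044) and r = 0.63. Fos and Egr1 had r = 0.82 (adjusted permutation p = 0.05), rho = 0.70 (adjusted 0.15) and r = 0.57, and these last 3 pairs were named after their values were seen. Fosb departed most from the others, with a negative r with Jun, Junb, Ier2, Nr4a1 and Dusp1. The lowest r of all was that of Fosb with Dusp1, r = -0.50 and rho = -0.47 (adjusted permutation p = 0.31 and 0.33). Without the 2 farthest arrays it was -0.20. The only other negative pair was Fos and Dusp1, with r = -0.14 and rho = -0.09 (adjusted permutation p = 0.83 and 0.87), and r = -0.41 without the 2 farthest arrays. Fos had r = 0.06 with Jun and 0.22 with Junb.

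Among the other 12395 genes, the one whose deviations most resembled the mean of the members was Nr4a2 (r = 0.93 and rho = 0.93 over 11 arrays), the close relative of Nr4a1 and itself an immediate early gene. It read 8.47, 8.70 and 8.82 log2 in hypoxia with SU5416, 8.91, 8.57, 8.72 and 8.12 in hypoxia, and 8.67, 8.36, 8.57 and 8.55 in normoxia, with hypoxia array 1 highest and hypoxia array 4 lowest of all 11. Psmd14 (r = 0.85), a proteasome subunit, Fchsd2 (0.85), Plcl2 (0.85), Tmed5 (0.84) and Colgalt2 (0.84) followed. These r values were the highest of many and are given as a description.

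The members' mean deviation was set against 25 other measures of the arrays, from array medians to marker lists, and no relation passed a permutation test after adjustment over the 25 (lowest adjusted p = 0.41). The nearest were the mean of 30 other growth factor-induced genes (r = 0.81, rho = 0.63, permutation p = 0.031 and 0.16, r = 0.46 without the 2 farthest arrays) and that of 11 MAPK phosphatases and feedback inhibitors (r = 0.74, rho = 0.76, permutation p = 0.033 and 0.018, r = 0.69). The 3′ to 5′ gap of beta-actin, a measure of RNA integrity and labelling, had r = -0.02 with it (permutation p = 0.94), and rho = -0.35 (permutation p = 0.24). That r is of a mean, in which members running opposite ways cancel. Normoxia arrays 1 and 2, with the widest gaps, were the highest of their group in Dusp1 1368146_at and the lowest in Fos 1375043_at. The relation of single members to the gap was not tested. The mean of 5 heat shock genes had r = -0.43 and rho = -0.53 (permutation p = 0.089 and 0.081). That of the 7 EGR and NR4A relatives, Nr4a2 among them, had r = 0.13 and rho = 0.06 (permutation p = 0.61 and 0.87). For the 11 AP-1 relatives the values were r = 0.34 and rho = 0.28 (permutation p = 0.46 and 0.49), with r = -0.19 without the 2 farthest arrays.

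The disagreement of the Dusp1 probe sets was widest where the beta-actin gap was widest. The difference 1368146_at minus 1368147_at was 1.71, 1.35 and 1.94 log2 in hypoxia with SU5416, 1.5, 2.40, 2.52 and 2.10 in hypoxia, and 3.69, 3.22, 1.48 and 1.45 in normoxia. The beta-actin gap was 0.58, 0.67 and 0.56 log2 in hypoxia with SU5416, 0.68, 0.78, 0.84 and 0.87 in hypoxia, and 2.24, 1.33, 0.51 and 0.60 in normoxia. Normoxia arrays 1 and 2 were the widest in both. Over the 11 arrays r was 0.89 (permutation p = 0.0002, adjusted over 5 probe set pairs 0.0011) and rho was 0.75 (adjusted 0.024), and without the 2 arrays farthest from the median r was 0.70. With group means subtracted r was 0.88 (permutation p = 0.025). One of the Jun pairs, 1389528_s_at minus 1374404_at, had r = 0.75 with the same gap (adjusted permutation p = 0.03), rho = 0.69 (adjusted 0.038) and r = 0.79 without the 2 farthest arrays, on a range of 1.81 to 2.23 log2. The other Jun pairs gave r = 0.62 and rho = 0.78 (1369788_s_at minus 1374404_at, adjusted permutation p = 0.063 and 0.024, r = 0.64 without the 2 farthest arrays) and r = 0.04 and rho = 0.02 (1389528_s_at minus 1369788_s_at, adjusted permutation p = 0.9 and 0.95). The Fos pair had r = -0.30 and rho = -0.53 (adjusted permutation p = 0.45 and 0.12; r = -0.75 without the 2 farthest arrays).

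**Figure D4:**
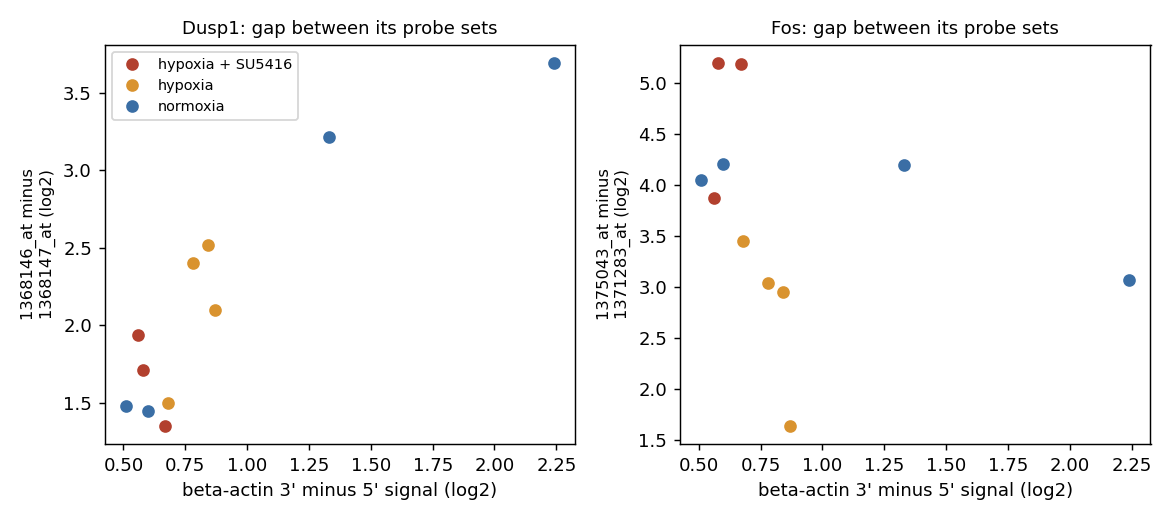
Difference between the 2 probe sets of Dusp1 (left) and of Fos (right) (log2, vertical axes) against the beta-actin 3′ to 5′ gap (log2, horizontal axes), 1 point per array, coloured by group. For Dusp1 the widest differences, 3.69 and 3.22, are on normoxia arrays 1 and 2, which have the widest beta-actin gaps, 2.24 and 1.33.

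Across arrays, on the log2 values themselves, the Dusp1 probe sets correlated at r = -0.44 and the Fos probe sets at 0.17, while the 3 Jun pairs lay between 0.76 and 0.92. Over all 7185 pairs of probe sets naming the same gene, both with a mean above background, the median of this r was 0.17, and 36.0% were below 0. With group means subtracted, r was -0.42 for Dusp1, 0.46 for Fos and between 0.70 and 0.87 for Jun. What the second probe sets of Dusp1 and Fos detect was not tested.

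Other genes of the same families were read from lists, and no gene of them was called in any comparison. Of 11 further AP-1 relatives, 7 were higher in hypoxia with SU5416 than in normoxia (median log2 difference 0.09). The smallest p belonged to Maff, a small Maf protein that lacks an activation domain, at 8.47 ± 0.15 log2 in hypoxia with SU5416 (SD, n = 3), 8.41 ± 0.28 in hypoxia and 7.72 ± 0.29 in normoxia (n = 4 each). Its difference was 0.76 (SE 0.19) for hypoxia with SU5416 against normoxia and 0.70 (SE 0.18) for hypoxia against normoxia, with no overlap of arrays and limma's adjusted p at 0.175 and 0.287. Of all 31042 probe sets, 1533 and 637 lay wholly higher in those comparisons. Batf3, a leucine-zipper partner of Jun, differed by 0.85 (SE 0.28, adjusted p = 0.275) and 0.66 (SE 0.26, adjusted p = 0.404) in the same comparisons, and Jdp2, a Jun dimerisation protein, by 0.49 (SE 0.18, adjusted p = 0.319) in the first. The 7 EGR and NR4A relatives had medians between -0.0067 and 0.063 in the 3 comparisons, with Nab2, a corepressor of Egr proteins, at -0.21 (SE 0.12, adjusted p = 0.559) in hypoxia against normoxia.

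Among the 30 other growth factor-induced genes, 17 were higher and 13 lower in hypoxia with SU5416 than in normoxia. Ptgs2, which makes prostaglandin precursors, averaged 8.71 ± 0.33 log2 in hypoxia with SU5416 (SD, n = 3) and 7.56 ± 0.39 in normoxia (n = 4), a difference of 1.15 (SE 0.36, limma adjusted p = 0.259) with no overlap. Ccn1, a matrix-associated signalling protein, averaged 5.88 ± 0.38 log2 in hypoxia with SU5416 and 6.79 ± 0.28 in normoxia, a difference of -0.91 (SE 0.24, adjusted p = 0.179), and its level with SU5416 was close to background. Ier3 was at 11.19 ± 0.15 log2 in hypoxia with SU5416, above all arrays of hypoxia (10.68 ± 0.23) and of normoxia (10.71 ± 0.23), with adjusted p at 0.53 and 0.294. Of all 31042 probe sets, 1946 lay wholly higher in hypoxia with SU5416 than in hypoxia, and 1533 than in normoxia. In hypoxia against normoxia, Errfi1, a feedback inhibitor of the epidermal growth factor receptor, differed by 0.73 (SE 0.24, adjusted p = 0.348) and the kinase Pim1 by 0.71 (SE 0.21, adjusted p = 0.324).

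Of 11 relatives of Dusp1 and other MAPK feedback genes, Dusp14 had the smallest p, with a difference of 0.33 (SE 0.10, limma adjusted p = 0.336) in hypoxia against normoxia and 0.29 (SE 0.11, adjusted p = 0.332) in hypoxia with SU5416 against normoxia. Dusp10, a phosphatase for p38 and JNK, differed by 0.63 (SE 0.22, adjusted p = 0.375) in the first of these. The 4 measured relatives of Btg2 (Btg1, Btg3, Tob1 and Tob2), which restrain proliferation, were all lower in hypoxia with SU5416 than in hypoxia, with a median of -0.15, no call, and Btg1 at -0.0033. Against normoxia, 2 of 4 were lower in hypoxia with SU5416 (median -0.049) and 3 of 4 were higher in hypoxia (median 0.13). The 16 measured upstream kinases and factors had medians of -0.045, -0.023 and 0.016 in hypoxia with SU5416 against normoxia, hypoxia with SU5416 against hypoxia and hypoxia against normoxia. The smallest adjusted p among them were those of Crem, a CREB-family factor (0.44, SE 0.20, adjusted p = 0.411, hypoxia with SU5416 against normoxia), and Nras, a small GTPase (0.25, SE 0.10, adjusted p = 0.415, hypoxia against normoxia).

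The tissue label was checked with 7 lung markers, among them Sftpc, Sftpb and Scgb1a1, whose mean level per array lay between 12.96 and 13.07 log2 in hypoxia with SU5416, between 12.89 and 13.10 in hypoxia and between 12.80 and 13.38 in normoxia. No marker of another cell type was called in any comparison, and the lists are given by counts. All 6 smooth muscle markers were higher in hypoxia with SU5416 than in normoxia (median log2 difference 0.73), with a mean level per array of 11.42 to 11.63 in hypoxia with SU5416, 10.52 to 11.23 in hypoxia and 10.57 to 10.99 in normoxia. Of 6 macrophage markers 5 were higher (median 0.66), with a mean level of 11.02 to 11.54 in hypoxia with SU5416 against 10.45 to 10.96 in normoxia. All 7 T and NK cell markers were lower (median -0.40), at 7.98 to 8.52 in hypoxia with SU5416 against 8.43 to 8.87 in normoxia, and so were all 4 B cell markers (median -0.49), at 7.60 to 8.04 in hypoxia with SU5416 against 8.03 to 8.54 in normoxia. Of 6 endothelial markers 5 were lower (median -0.25), at 11.78 to 11.92 in hypoxia with SU5416 against 11.92 to 12.26 in normoxia. All 6 fibroblast markers (median 0.54) and all 3 measured erythroid markers (median 0.77) were higher in hypoxia with SU5416 than in normoxia. In hypoxia against normoxia, all 7 T and NK cell markers (median -0.46) and all 4 B cell markers (median -0.47) were lower and all 3 erythroid markers were higher (median 0.62). In hypoxia with SU5416 against normoxia, 2 of 5 cardiac muscle, 4 of 7 neutrophil and 2 of 5 mast cell markers were higher. In hypoxia against normoxia, 0 of 5, 1 of 7 and 3 of 5 were. The mean level of the cardiac markers per array ran from 6.37 to 11.10 log2 in normoxia. It ran from 6.90 to 8.59 in hypoxia and from 7.05 to 9.04 in hypoxia with SU5416. The part of any of these cell types in the differences of the immediate early genes was not tested.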

How the data were processed

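Whole-lung RNA from 3 groups of rats was measured on 11 arrays, whose number limits the precision. The deposited values are log2 signals, 1 per probe set and array. Per the submitters' processing notes the authors used RMA, no version given. The linear values, however, have a mean near 500 on each array after trimming, and the distributions differ between arrays, so the summarisation is uncertain. No further normalization was applied. Array medians ran from 7.80 to 8.01 log2.

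After 57 control probe sets were set aside, all 31042 others entered 1 limma 3.58.1 model (R 4.3.3, lmFit and eBayes, a mean per group, 8 residual degrees of freedom). There were 3 two-sided contrasts, each with Benjamini-Hochberg adjustment over all probe sets and a threshold of 0.05. The median SE of a log2 difference was 0.19 in hypoxia against normoxia and 0.20 in the others. The procedure was tested on simulated data. Gene names came from the platform annotation: 20826 probe sets name 1 gene, 436 several and 9780 none. Where a gene had several probe sets, the one of highest mean stood for it.

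Correlations used deviations from group means, with 100000 permutations within groups. The correlation of the gaps between probe sets with the beta-actin gap permuted all arrays unless stated. Promoters are from the RefSeq table for GRCr8. The members and the lists were chosen with earlier results of these data known. From each related list, up to 3 genes of smallest p per comparison could be named, along with every member, the 6 genes most alike and the pairs of highest and lowest r. Alternatives were quantile normalization, median centring, a filter on dim probe sets, only the groups compared, trend and robust options, array weights, a replicate block, leaving out arrays, the mean of all probe sets of a gene, and the beta-actin gap as a covariate. Python 3.11.15, numpy 2.4.6, pandas 2.3.3, scipy 1.17.1 and matplotlib 3.10.9 made the tables and figures.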

Additional observations from a re-analysis of the deposited data

Results flagged for a closer look

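Normoxia array 2 stood apart from its group in the second Fos probe set, 1371283_at, at 5.519 log2, below the background level, where the other 3 normoxia arrays read 6.87, 7.14 and 7.00. Its gap to the nearest array was 0.834 of the group's range, above the critical value of 0.829 for 4 arrays. Of 26 groups of 4 arrays examined, 1 was flagged, and chance flags about 1 group in 20.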

How the results depend on the processing

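No member was called under any alternative, with adjusted p from 0.2 in hypoxia with SU5416 against normoxia, from 0.239 in hypoxia with SU5416 against hypoxia and from 0.323 in hypoxia against normoxia, over 258 values each. With arrays left out in turn, the median correlation between members (0.518 over all arrays) ran from 0.397 (without hypoxia array 1) to 0.67 (without normoxia array 1) and the median member difference from -0.26 to -0.037, from -0.23 to 0.083 and from -0.21 to -0.019 in those comparisons. Signs of single probe sets turned in 56 of 774 recomputed values, none of them called, and the cause was not tested.

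In hypoxia against normoxia (values of the full fit are in the report), Fos 1375043_at became -0.12 with array weights, -0.30 with the beta-actin gap as a covariate, -0.023 after quantile normalization and -0.65 without normoxia arrays 1 and 2. Under those settings Dusp1 1368147_at became -0.13 (weights), -0.27 (covariate) and -0.69 (without the 2 arrays), and Junb became 0.081, 0.11 and 0.22. Nr4a1 was -0.0096 (covariate), -0.013 (quantile) and -0.028 (without the 2 arrays), and Jun 1369788_s_at was 0.028 without them. Without them Egr1 was -0.38 and Atf3 -0.27. Centring gave 0.0698 for Junb, 0.02 for Atf3 and 0.0025 for Ier2. In hypoxia with SU5416 against normoxia, Fos 1375043_at was -0.18 (covariate) and -0.37 (without the 2 arrays), Dusp1 1368146_at 0.0081 and 0.017, Dusp1 1368147_at -0.18 without them and Nr4a1 0.028 after centring. For hypoxia with SU5416 against hypoxia, Dusp1 1368146_at was -0.0025 after centring and -0.0064 after quantile normalization.

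Leaving out single arrays gave, in hypoxia against normoxia, -0.23 to 0.36 for Fos 1375043_at, -0.20 to 0.17 for Junb, -0.27 to 0.12 for Atf3, -0.10 to 0.21 for Nr4a1 and -0.16 to 0.45 for Dusp1 1368147_at. In hypoxia with SU5416 against normoxia it gave -0.025 to 0.21 for Junb, -0.26 to 0.043 for Egr1 and -0.13 to 0.075 for Nr4a1. In hypoxia with SU5416 against hypoxia it gave -0.037 to 0.49 for Fos 1375043_at, -0.16 to 0.035 for Jun 1374404_at, -0.092 to 0.28 for Junb, -0.053 to 0.25 for Egr1, -0.23 to 0.083 for Nr4a1 and -0.0075 to 0.11 for Dusp1 1368146_at.

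Same-numbered arrays correlated between -0.12 and 0.13, and different-numbered arrays between -0.13 and 0.14. The labels do not say whether the replicate numbers pair the arrays, and correlations of so few arrays cannot decide it. With the replicate number as a block, 0 members were called, the median member differences were -0.17 (hypoxia with SU5416 against normoxia), -0.14 (against hypoxia) and -0.088 (hypoxia against normoxia), and Junb became -0.047 (hypoxia with SU5416 against normoxia) and -0.027 (against hypoxia).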

Other observations

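Of 9 measured glucocorticoid-induced genes, 8 were higher in hypoxia with SU5416 than in normoxia (median log2 difference 0.45) and all 9 were higher in hypoxia than in normoxia (0.52), and none was called. Against normoxia, Sgk1, a serum- and glucocorticoid-induced kinase, differed by 0.59 (SE 0.22, limma adjusted p = 0.318) in hypoxia with SU5416 and by 0.55 (SE 0.20, adjusted p = 0.383) in hypoxia. Cebpd, a transcription factor of the acute-phase response, differed by 0.68 (SE 0.26, adjusted p = 0.338) and 0.68 (SE 0.24, adjusted p = 0.372) in the same comparisons, and the metallothionein Mt2A by 0.73 (SE 0.21, adjusted p = 0.22) in the first.

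Other stress lists held no called gene. Of 7 measured p53 targets, 3 were higher and 4 lower in hypoxia with SU5416 than in normoxia (median log2 difference -0.025). Among them, the cell cycle inhibitor Cdkn1a averaged 10.73 ± 0.28 log2 in hypoxia with SU5416 (SD, n = 3) and 10.08 ± 0.07 in normoxia (n = 4), a difference of 0.65 (SE 0.29, limma adjusted p = 0.396), and Gadd45a differed by 0.54 (SE 0.19, adjusted p = 0.31). The endoplasmic reticulum chaperone Hspa5 was at 12.50 ± 0.16 log2 in hypoxia with SU5416 and 12.19 ± 0.12 in hypoxia, a difference of 0.31 (SE 0.11, adjusted p = 0.579) with no overlap of arrays. In that comparison 1946 of all 31042 probe sets lay wholly higher. Of the heat shock genes, Hspa1a differed by -0.55 (SE 0.26, adjusted p = 0.424) and Hspb1 by 0.39 (SE 0.15, adjusted p = 0.341) in hypoxia with SU5416 against normoxia.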
